A study of Mus musculus with 14 samples.

Results

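The miRNA cluster of the imprinted Dlk1-Dio3 region was described here in small RNA sequencing of mouse macrophage exosomes and cell lysates. Members were chosen by name: every line, that is, every mature miRNA arm, of 49 hairpins of the region in the deposited table of counts. This gave 58 of the table's 1250 lines, from 40 of the 49 hairpins, 37 of them 3p arms and 21 of them 5p arms. No line was found for miR-540, miR-665, miR-380, miR-679, miR-1193, miR-667, miR-376b, miR-539 and miR-541, which were not analysed here. The label gave bone marrow as the source and excised bone as the tissue of all 14 libraries. Exosomes, small vesicles taken from the culture supernatant on a density gradient, gave 8 libraries: 4 were titled WT and labelled control (wild type), and 4 were titled IL4 and labelled stimulated macrophages. Lysates of cells gave 6 libraries, 3 controls and 3 stimulated. Interleukin 4 (IL4) is a cytokine that drives macrophages towards alternative activation. No genotype was given for the stimulated libraries, and no dose, time, strain or age for any of them. Titles carried 4 exosome dates, 25 January, 16 March, 5 April and, of the year before, 29 December, and 3 lysate dates, 23 January, 14 March and 21 March. Each date held 1 control and 1 stimulated library, and values below follow these orders. No date was shared by exosomes and lysates.

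Genomic imprinting means that only the copy of a gene from one parent is active. In the Dlk1-Dio3 region the copy from the father expresses the protein-coding genes Dlk1, Rtl1 and Dio3, and the copy from the mother expresses the long noncoding RNAs Meg3, Rian and Mirg and the miRNAs that lie along them. A miRNA is cut from a hairpin as a 5p and a 3p arm, and an arm loaded into Argonaute finds messenger RNAs mainly through its seed. Altered dosage of the region disturbs fetal growth, and its miRNAs are known from embryo, placenta, brain, muscle and stem and progenitor cells, including haematopoietic stem cells.

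RefSeq sequences on build GRCm38.p6 were matched to 55 of the 58 lines, all between Dlk1 (chr12:109452485-109463336) and Dio3 (chr12:110279230-110281097), 53 on the plus strand and 2 on the minus strand. The 12 lines with the highest mean level over both compartments held 86.5% of the cluster's exosome counts and 90.7% of its lysate counts. Those with a sequence are printed because all values below turn on them, 5′ to 3′ with the seed, bases 2 to 8, in capitals.
miR-369-3p: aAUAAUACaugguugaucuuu
miR-409-3p: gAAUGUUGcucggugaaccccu
miR-411-5p: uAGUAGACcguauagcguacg
miR-379-5p: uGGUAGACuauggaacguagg
miR-493-5p: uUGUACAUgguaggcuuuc
miR-127-3p: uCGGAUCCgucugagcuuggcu
miR-494-3p: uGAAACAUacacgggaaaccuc
miR-495-3p: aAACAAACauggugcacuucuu
miR-382-5p: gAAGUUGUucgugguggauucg
miR-543-3p: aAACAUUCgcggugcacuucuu
miR-411-3p: uAUGUAACacgguccacuaacc
miR-487b-3p is the other line of the 12. No pair among these 11 sequences shared a seed. 1 line outside the 12 shared a seed with 1 of them, the 3p arm of the hairpin next to miR-411.
miR-379-3p: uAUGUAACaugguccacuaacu
miR-379-3p and miR-411-3p thus shared AUGUAAC, and the only other shared seed was AUGUGGG in miR-299a-3p and miR-299b-3p. The 55 sequences carried 53 seeds, so most lines of the cluster had a seed of their own. No line outside the cluster carried the seed of any of the 11 sequences.

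The miR-299a and miR-299b hairpins lie on opposite strands of the same stretch and are printed because their lines could not be told apart.
miR-299a-5p: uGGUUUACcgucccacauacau
miR-299b-5p: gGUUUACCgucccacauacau
Both lines shared a run of 21 bases and had the same count in all 14 libraries, 35 in total each. Their 3p arms shared 18 bases and differed in 1 library, with totals of 51 and 47 counts. The counts of these 4 lines are therefore uncertain.

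Along the chromosome the hairpins formed 3 blocks. The first, from miR-770 to miR-136 (chr12:109563744-109595387), held 12 lines, of which miR-770-3p lay in a Meg3 exon and 8 lay antisense to an exon of Rtl1. A block of 3 lines, miR-341 and miR-370, lay in Rian introns (chr12:109611521-109618326). The last, from miR-379 to miR-410 (chr12:109709065-109743784), held 43 lines up to and within Mirg. Of these, 11 lay in a Mirg intron and 4 in a Mirg exon of the GENCODE annotation. miR-369-3p at chr12:109743466-109743486 and miR-409-3p at chr12:109743204-109743225 were intronic to Mirg. miR-382-5p at chr12:109733781-109733802 was intronic to Mirg in GENCODE but lay upstream of the shorter RefSeq gene (chr12:109734981-109749458). miR-379-5p (chr12:109709065-109709085), miR-411-5p (chr12:109710190-109710210), miR-494-3p (chr12:109715367-109715388), miR-543-3p (chr12:109717304-109717325) and miR-495-3p (chr12:109718795-109718816) lay upstream of it in no annotated gene. miR-493-5p (chr12:109580243-109580261) lay in no gene of the GENCODE annotation and within the longer span that RefSeq gives Rtl1 (chr12:109564900-109604418), and miR-127-3p (chr12:109592888-109592909) lay antisense to Rtl1.

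Library totals ran from 28417 to 411671 counts in exosomes and from 3941480 to 6792079 in lysates, so 1 count was worth 2.43 to 35.2 counts per 1000000 counts (CPM) in exosomes and 0.147 to 0.254 CPM in lysates. The cluster received 10021 exosome counts and 2624 lysate counts. Myeloid markers, a list of miRNAs chosen to mark macrophages and related cells, were counted in every group on 8 of 8 lines. They summed to 2.93% to 4.20% of counts in control exosomes, 1.74% to 2.22% in IL4 exosomes, 3.16% to 3.49% in control lysates and 1.29% to 1.96% in IL4 lysates. The sum was lower with IL4 in both compartments, so it cannot serve as a measure of cell type across treatments. Where a value is a mean, ± gives the SD over libraries, and intervals of shares are exact (Clopper-Pearson) 95% intervals that cover counting error only.

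The cluster made up 0.418% to 1.65% of all miRNA counts in the exosome libraries and 0.000359% to 0.0217% in the lysates. In control exosomes its share of counts was 1.06%, 1.65%, 1.56% and 0.796% (1.26% ± 0.406, n = 4). In IL4 exosomes it was 0.418%, 1.15%, 0.958% and 0.549% (0.770% ± 0.345, n = 4). Control lysates held 0.000574%, 0.0126% and 0.0117% (0.00829% ± 0.00670, n = 3), and IL4 lysates 0.000359%, 0.0217% and 0.00417% (0.00875% ± 0.0114, n = 3). The groups of the 2 compartments did not overlap: the lowest exosome share was 19.2 times the highest lysate share. Counting error was small beside the spread between libraries, since the widest relative interval, of the IL4 lysate of 23 January, ran from 0.000222% to 0.000548%. Mean exosome shares were 152 times the mean lysate share in controls and 88.0 times in IL4 libraries. Without the IL4 lysate of 14 March the mean IL4 lysate share was 0.00226%. Without the lysates of 23 January the mean was 0.0121% in controls and 0.0129% with IL4, still below every exosome library. Because dates, depth and preparation all differ between exosomes and lysates, they cannot be told apart from the compartment, and in bulk libraries a larger share does not tell more copies per vesicle from more vesicles that carry them.

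**Figure D1:**
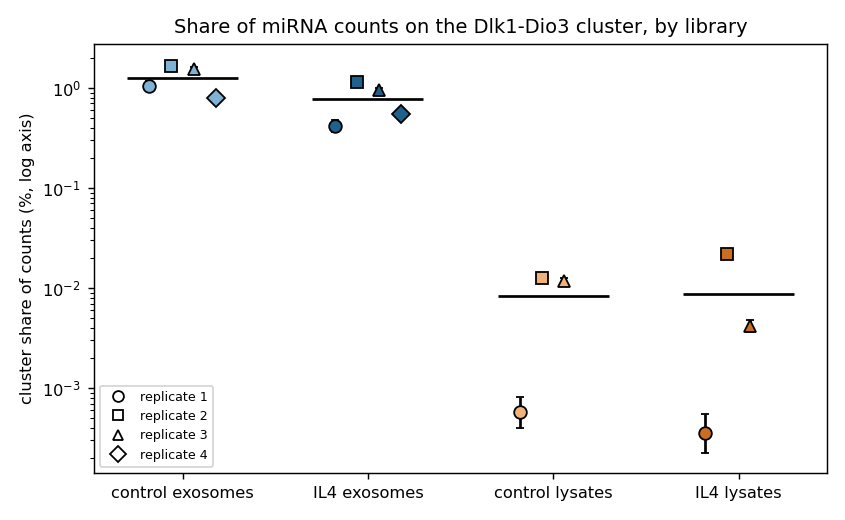
Share of all miRNA counts on the 58 cluster lines (percent, log axis) in each of the 14 libraries, with symbols for replicates, whiskers for exact 95% counting intervals and lines for group means. All 8 exosome libraries, from 0.418% to 1.65%, lie above all 6 lysates, whose highest share is 0.0217%, and both lysates of 23 January, replicate 1, lie lowest.

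More of the cluster was also seen in exosomes once depth was made equal. Thinned to 28417 counts, the smallest total, a control exosome library was expected to show 30.3 ± 1.68 of the 58 lines and an IL4 exosome library 26.3 ± 3.33. A control lysate was expected to show 1.20 ± 0.905 and an IL4 lysate 1.19 ± 1.29. Over all lines of the table the corresponding numbers were 339 ± 17.8, 328.8 ± 18.4, 251 ± 8.45 and 246 ± 9.91. The difference in cluster lines was thus far larger than the spread between libraries, while the whole table differed less. At full depth 15 lines were counted in all 8 exosome libraries, and miR-369-3p alone was counted in all 6 lysates. No lysate count was found for 27 lines, and no exosome count for 3 (miR-495-5p, miR-337-3p and miR-323-5p, with 3, 1 and 1 lysate counts).

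The last block held most of the signal. It had 87.1% of the cluster's exosome counts and 94.8% of its lysate counts, and the first block 12.6% and 5.22%. The Rian block had 0.349% of the exosome counts and none of the 2624 in lysates. Its level was 41.6 ± 34.2 CPM in control exosomes and 53.7 ± 72.7 CPM in IL4 exosomes, with libraries at 0 in both groups. The first block stood at 1788 ± 326 CPM in control exosomes and 941 ± 384 CPM in IL4 exosomes, and the last block at 10807 ± 3813 and 6703 ± 3111 CPM. Within blocks the hairpins were uneven: miR-493 and miR-127 led the first, and miR-369 stood far above its neighbours in the last.

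**Figure D2:**
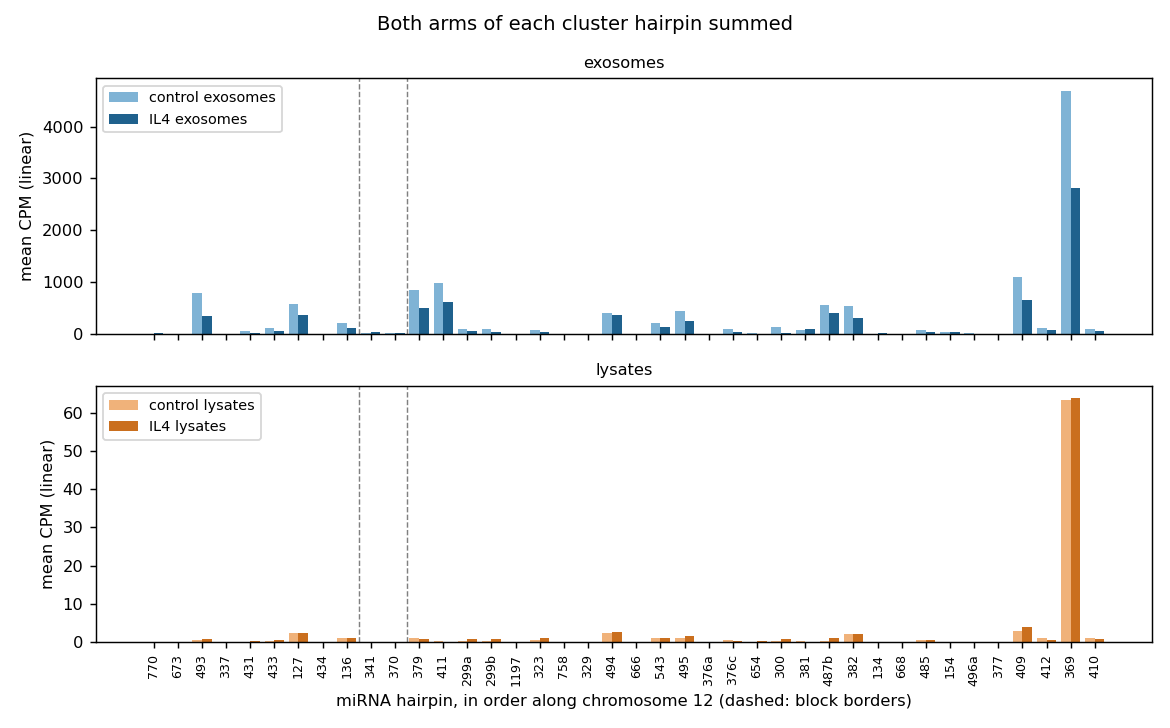
Mean CPM (linear) of each of 40 hairpins, both arms summed, in order along chromosome 12, in exosomes above and lysates below on separate scales, with bars for group means and dashed lines for block borders. miR-369 is the tallest bar in each panel, and in lysates it exceeds the next hairpin by a larger factor than in exosomes.

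miR-369-3p, known for binding an AU-rich element in Tnf messenger RNA, was the most abundant line in every group. Its level was 3238, 6215, 6723 and 2379 CPM in control exosomes and 1219, 5131, 3015 and 1825 CPM in IL4 exosomes. Control lysates had 4.35, 94.7 and 91.1 CPM and IL4 lysates 2.90, 157 and 32.3 CPM. Every exosome library stood above every lysate, and the lysates of 23 January were low in both groups, with 25 and 17 counts. miR-369-3p took 29.2% to 44.4% of the cluster's counts in exosomes and 72.1% to 81.0% in lysates, ranges that did not overlap. Without it, the cluster's mean share was 410 times as high in control exosomes as in control lysates and 208 times as high in IL4 exosomes as in IL4 lysates. Its log2 difference between exosomes and lysates was 5.24 (SE 1.26, adjusted p = 0.00281) in controls and 4.62 (SE 1.22, adjusted p = 0.00605) with IL4 (edgeR quasi-likelihood test, Benjamini-Hochberg adjustment).

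miR-409-3p comes from a hairpin close upstream of miR-369. Control exosomes held 528, 1692, 1246 and 820.2 CPM and IL4 exosomes 419.7, 656, 1018 and 482 CPM. Its lysate levels were 0.174, 4.42 and 4.17 CPM in controls and 0, 10.4 and 1.36 CPM with IL4. Exosomes were above all lysates, by a ratio of mean CPM of 367 in controls and 164 with IL4. The lysates followed the dates of miR-369-3p, low on 23 January in both groups. miR-382-5p, from a hairpin further upstream, had 457, 386, 412.009 and 246 CPM in control exosomes and 159.9, 335, 328 and 52.1 CPM in IL4 exosomes. For miR-382-5p, control lysates gave 0, 1.18 and 1.09 CPM and IL4 lysates 0.171, 1.78 and 0.584 CPM. The exosome levels of miR-382-5p were again above every lysate.

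miR-411-5p and miR-379-5p come from the first 2 hairpins of the last block. miR-411-5p stood at 492.7, 1306, 949.6 and 547 CPM in control exosomes and 279.8, 710.0, 646 and 391 CPM in IL4 exosomes. In control lysates miR-411-5p had 0, 1 and 4 counts and in IL4 lysates it had 0 counts in all 3 libraries. Its exosome to lysate ratio was the highest among those of the 12 lines with over 3 counts in control lysates: the ratio of mean CPM was 2831 in controls, and with IL4 it was at least 2522-fold higher in exosomes than a floor of 3 counts over the lysate group. The other arm, miR-411-3p, had 211, 221, 176 and 54.7 CPM in control exosomes and 139.9, 40.2, 216 and 65.2 CPM in IL4 exosomes, and 1 count in all 6 lysates together. miR-379-5p followed miR-411-5p closely, with 492.7, 1085, 975 and 547 CPM in control exosomes and 179.9, 656, 651 and 404 CPM in IL4 exosomes. Lysate levels of miR-379-5p were 0, 1.33 and 0.907 CPM in controls and 0, 1.52 and 0.779 CPM with IL4, far below every exosome library.

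The hairpins of miR-494, miR-543, miR-495 and miR-487b lie between these ends of the block. miR-494-3p had 282, 791, 447 and 109 CPM in control exosomes and 139.9, 576, 313 and 365 CPM in IL4 exosomes. Its lysate levels were 0.348, 3.83 and 3.08 CPM in controls and 0, 6.09 and 1.75 CPM with IL4. The exosome groups overlapped widely, but both were above all lysates. miR-495-3p gave 633, 386, 628 and 137 CPM in control exosomes and 139.9, 375, 340.1 and 169 CPM in IL4 exosomes, against 0, 2.06 and 0.544 CPM in control lysates and 0, 4.06 and 0.195 CPM in IL4 lysates. miR-543-3p was lower, at 176, 386, 211 and 109 CPM and 99.9, 133.97, 221 and 117 CPM in control and IL4 exosomes, and 0, 1.18 and 2.18 CPM and 0, 2.03 and 1.36 CPM in control and IL4 lysates. For both lines the lysate of 23 January was at 0 in each group. miR-487b-3p reached 669, 717, 583 and 273 CPM in control exosomes and 179.9, 589, 420.2 and 456 CPM in IL4 exosomes, and in lysates it was counted only on 14 March, 7 counts in the control and 11 with IL4.

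In the first block, miR-493-5p and miR-127-3p led. miR-493-5p was the steadiest of the 12 lines in control exosomes, at 879.8, 883, 708 and 738 CPM (802 ± 92.0, n = 4), and had 219.9, 335, 510.1 and 378 CPM (361 ± 119.9, n = 4) in IL4 exosomes. Control lysates had 0, 0.736 and 0.726 CPM of it and IL4 lysates 0, 1.78 and 0.779 CPM. All 4 IL4 exosome libraries were below all 4 control ones, which held for 1 of the 58 cluster lines and 11 of 1250 lines in all (0.88%). Among lines counted in all 8 exosome libraries it held for 1 of 15 cluster lines and 7 of 214 lines in all (3.27%). miR-127-3p, which is fully complementary to the Rtl1 transcript and is known to direct its cleavage, had 528, 570.1, 784 and 437 CPM in control exosomes and 219.9, 522, 442 and 156 CPM in IL4 exosomes. Its lysate levels were 0, 3.53 and 3.08 CPM in controls and 0, 7.10 and 0 CPM with IL4. miR-127-3p was lower with IL4 at every exosome date, yet the exosome groups overlapped.

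**Figure D3:**
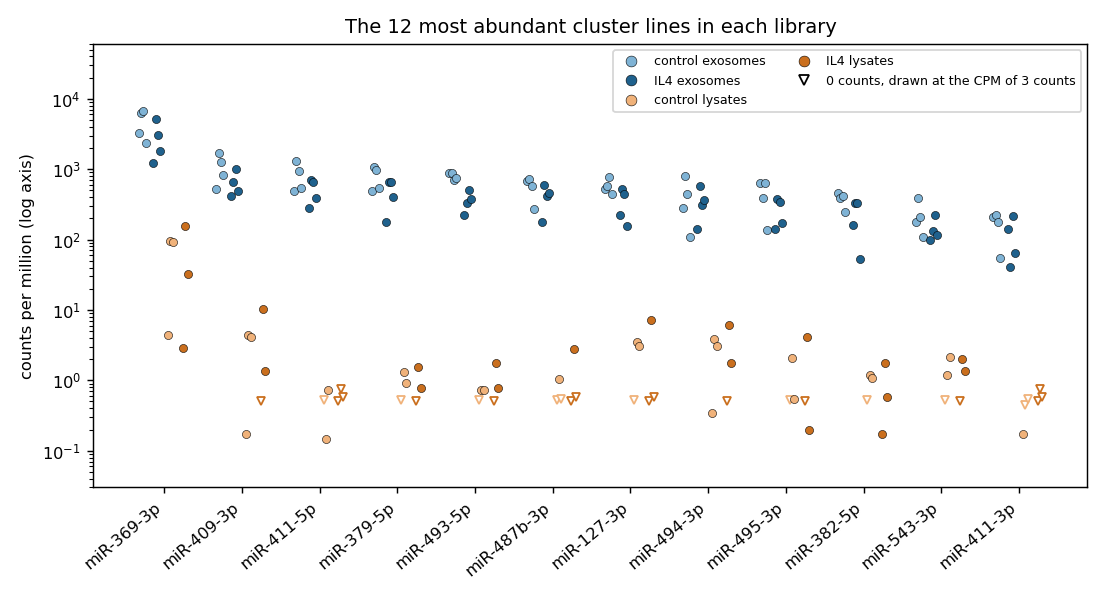
CPM (log axis) of the 12 most abundant cluster lines in every library, with a point per library coloured by group and an open triangle at the CPM of 3 counts where a library had 0 counts. For every line all exosome points lie above all lysate points, and miR-369-3p is the highest line in each group.

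The other 46 lines had 0 to 148 exosome counts each and at most 38 lysate counts. miR-382-3p (148 exosome and 38 lysate counts), miR-136-3p (120 and 31) and miR-412-5p (114 and 22) were the most counted of them. Among the Rtl1-antisense miRNAs, known with miR-127 to target Rtl1, miR-433-3p had 94 exosome and 13 lysate counts, miR-431-5p 16 and 3, miR-431-3p 7 and 0, and miR-434-3p 1 and 0. miR-134-5p, known for restraining Limk1 in the dendrites of neurons, had 7 and 0. Of all 58 lines, 15 had 100 or more exosome counts, 22 had 10 to 99 and 21 had under 10. Levels of the last kind are set by single counts, and no fold was given where a group had 3 counts or fewer in exosomes. Outside the 49 hairpins, 4 lines of the region were in the table: miR-1247-5p (17 exosome and 2 lysate counts), miR-1247-3p (2 and 0), miR-3071-3p (10 and 0) and miR-3070-3p (2 and 0).

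Both arms were in the table for 18 hairpins. In exosomes 75.4% of the cluster's counts were on 3p arms, and in lysates 95.9%. miR-369-3p alone gave 3680 of the 10021 exosome counts and 1970 of the 2624 lysate counts. The summed shares are therefore no measure of arm use within a hairpin. The 3p arm held 99.04% of miR-369 counts in control exosomes (95% interval 98.5% to 99.4%) and 97.0% of those of miR-409 (94.8% to 98.4%). miR-411 and miR-379 favoured the 5p arm: the 3p arm made up 15.8% (12.1% to 20.01%) and 5.90% (3.53% to 9.17%) of their counts in control exosomes, and 22.3% (18.6% to 26.3%) and 7.51% (5.09% to 10.6%) in IL4 exosomes. Lysates had 6 counts of miR-411 and 27 of miR-379, too few to set an arm share against these. miR-493 had its 5p arm only in the table. These shares are of counts pooled over a group, so their intervals leave out the spread between libraries, and no test was made of them.

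Exosomes were first compared with lysates over all 1250 lines in 1 fit of the 14 libraries. A filter on low counts, near 32.7 CPM in at least 3 libraries, left 338 lines, 30 of them from the cluster, and 29 of those 30 reached that level in no lysate, so they passed because of their exosome level. In control libraries all 30 were called higher in exosomes at an adjusted p of 0.05 or less, where 29.3% of the 338 lines were called higher, 21.6% lower and 50.9% in either direction. In IL4 libraries all 30 were called higher, with 30.2% of lines called higher, 18.9% lower and 49.1% in either direction. Because the filter selected them, these counts do not support a statement about the cluster. With no filter, all 58 lines entered: 43 were called higher in control exosomes and 0 lower, where 145 of 1250 lines (11.6%) were called higher. With IL4, 42 were called higher and 0 lower, against 160 of 1250 lines (12.8%). The 43 include miR-494-5p and miR-496a-3p, with 2 and 3 control exosome counts, for which no fold was given. They also include miR-431-3p, miR-136-5p, miR-127-5p, miR-341-5p and miR-412-3p, whose 7, 10, 7, 5 and 4 control exosome counts came from 1 library each. Both miR-299a-5p and miR-299b-5p, which could not be told apart, are among them. The lines not called had few counts, such as miR-329-3p, miR-434-3p and miR-666-3p, which were not called in either treatment. Few counts did not keep every line from being called. miR-341-3p was called in controls on 2 exosome counts, and miR-770-3p and miR-136-5p with IL4 on 3 each, for each line from 1 library. The IL4 calls of miR-299b-3p (25 exosome counts), miR-376a-5p (7) and miR-341-5p (7) also rested on 1 exosome library each. By raw CPM, 22 of 58 cluster lines had all 4 control exosome libraries above all 3 control lysates (7.52% of all 1250 lines did), and 16 of 58 did so with IL4 (8.16%). The 22 also include both miR-299a-5p and miR-299b-5p.

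The size of the difference varied among members. Of the 30 lines fitted, 29 passed the filter because of their exosome level. Adjusted p-values and calls in this paragraph therefore do not support a statement about the cluster, and only sizes are described. miR-411-5p had the largest fitted log2 difference of the 30 lines in controls, 10.45 (SE 0.82, adjusted p = 1.07e-06), and miR-493-5p (9.68 (SE 0.97, adjusted p = 2.63e-06)), miR-487b-3p (9.52 (SE 1.31, adjusted p = 5.07e-05)) and miR-379-5p (9.03 (SE 1.02, adjusted p = 1.02e-05)) came next among those of the 12 lines with over 3 lysate counts. miR-369-3p had the smallest of the 12 in both treatments. With IL4 the values were 8.52 (SE 1.02, adjusted p = 1.62e-05) for miR-379-5p, 8.02 (SE 0.91, adjusted p = 1.09e-05) for miR-493-5p and 6.46 (SE 1.37, adjusted p = 0.00151) for miR-127-3p. All 12 lines stayed called without any 1 library of the treatment, but their sizes rested on single lysates. Without the IL4 lysate of 14 March, 10 of the 12 moved by over 1.5 times, with miR-409-3p at 9.28, miR-495-3p at 10.30, miR-369-3p at 6.67, and miR-127-3p at 12.11 and miR-487b-3p at 12.39, the last 2 then with 0 counts in the IL4 lysates left, so that their values are no bound. In controls, 9 of the 12 moved by over 1.5 times without the lysate of 23 January (by -0.63 to 0.78 on the log2 scale), 3 without that of 14 March (miR-487b-3p to 12.41, with 0 counts left) and 2 without that of 21 March (miR-411-5p to 11.82). As ratios of mean CPM, folds ran from 47.1 to 2831 over the 23 lines with enough counts in controls (median 197) and from 19.9 to 616 over 20 lines with IL4 (median 122). For lines with 0 lysate counts, lower bounds against the floor of 3 counts over the group ran from 30.2 to 529 over 14 lines in controls and from 21.2 to 2522 over 17 lines with IL4. The median log2 difference of all 338 lines was -0.18 in controls and -0.01 with IL4, and scaling to library size alone moved it to 0.63 and 0.68 without changing any of the 30 calls. Among all lines called, that scaling raised the share called higher from 57.6% to 88.7% in controls and from 61.4% to 91.4% with IL4, and RLE factors, which are DESeq2's scaling, raised it to 69.9% in controls. Without both lysates of 23 January, left out after seeing the data, 25 of 25 cluster lines tested were called higher in controls and 24 of 25 with IL4. The fits on the 7 libraries of 1 treatment called 23 of 23 cluster lines tested in controls and 21 of 21 with IL4. These refits used the filter on low counts too, so their counts of calls likewise do not support a statement about the cluster.

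**Figure D4:**
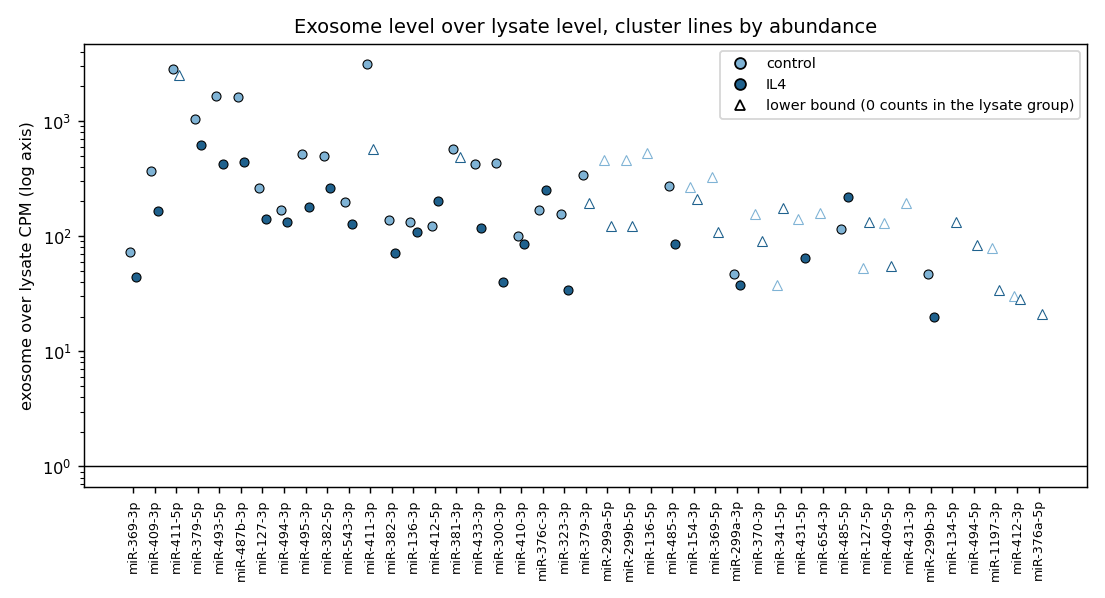
Exosome CPM over lysate CPM (log axis) for the 43 cluster lines with over 3 exosome counts in a group, ordered by abundance, with a circle for a ratio and an open triangle for a lower bound where the lysate group had 0 counts. Every point lies above 1, and miR-369-3p, the most abundant line, has one of the lower ratios, 73.2 in controls and 43.8 with IL4.

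Markers of other cell types moved with the compartment too. Erythroid markers (4 of 4 lines counted in each group) summed to 2.95% to 5.53% of counts in control exosomes, 2.18% to 3.05% in IL4 exosomes, 0.0117% to 0.0211% in control lysates and 0.0120% to 0.0152% in IL4 lysates, a ratio of means of 246 in controls and 189 with IL4. The 2 endothelial lines summed to 0.686% to 2.75% and 0.410% to 1.59% in control and IL4 exosomes and to 0.00274% to 0.00339% and 0.00134% to 0.00326% in the lysates, a ratio of 533 and 506. The lymphocyte marker miR-150-5p had ratios of 77.2 and 61.8. Muscle markers (4 lines, with miR-206-3p at 0 in both control groups) had ratios of 400 and 68.7, and epithelial markers (7 lines, with miR-205-5p at 0 in all lysates) 74.3 and 179. The epithelial ratio came from miR-203-3p (17467 CPM in control exosomes and 18.1 CPM in control lysates) and miR-205-5p; miR-200c-3p had 122 and 77.2 CPM and miR-429-3p 20.2 and 25.6 CPM, and the median log2 difference of the 5 epithelial lines tested was 0.16 in controls and 0.38 with IL4. Neural markers (4 lines, with miR-124-3p at 0 in control lysates) had 35.2 and 12.9, and liver, gut and serum markers (4 lines) 24.4 and 13.3. Stromal markers (10 lines) summed to 0.588% to 1.03% and 0.381% to 0.788% in control and IL4 exosomes and to 0.403% to 0.481% and 0.268% to 0.389% in the lysates, a ratio of 1.72 and 1.81. That sum was mostly miR-140-3p, at 3722 CPM in control exosomes and 3948 CPM in control lysates, whereas miR-143-3p had 2604 and 109 CPM, the line shared by miR-199a-3p and miR-199b-3p 697 and 29.5 CPM and miR-145a-5p 126.7 and 4.31 CPM. Of 6 stromal lines tested, 3 were called higher and 2 lower in control exosomes, with a median log2 difference of 3.48, and 4 higher and 0 lower with IL4, with a median of 3.35 (edgeR). In the stromal list miR-143-5p was at 0 in control exosomes and IL4 lysates and miR-199b-5p in control lysates. Myeloid markers had ratios of 1.05 and 1.32. That sum was mostly miR-223-3p, at 20895 CPM in control exosomes and 22230 CPM in control lysates. Of the 8 myeloid lines, 0 were called higher and 4 lower in control exosomes, with a median log2 difference of -0.85. With IL4, 1 was called higher and 2 lower, with a median of -0.09 (edgeR). The cluster's ratios of 152 and 88.0 lay among the summed ratios of the erythroid, muscle and lymphocyte lists, and the part of these cell types in the result was not tested.

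Within exosomes, IL4 libraries were compared with control libraries over 182 lines, 13 of them from the cluster, and the other 45 fell below the filter. None of the 13 was called (background 0.549%, 1 of 182 lines). All 13 had a negative log2 fold change, from -0.98 to -0.06 with a median of -0.55, where 107 of 182 lines (58.8%) were negative and the median of all was -0.09. The lowest unadjusted p among them, 0.00679, was that of miR-493-5p, whose adjusted p in edgeR was 0.243 and whose 95% interval ran from -1.62 to -0.34. It was the 1 cluster line among 12 lines with an unadjusted p under 0.05, and DESeq2 called 0 cluster lines as well. For miR-369-3p the value was -0.58 (SE 0.43, adjusted p = 0.804), with a 95% interval of -1.53 to 0.38, and for miR-127-3p it was -0.65 (SE 0.39, adjusted p = 0.804), with an interval of -1.51 to 0.22. This fit did not pair libraries by date. With the date as a block, edgeR gave adjusted p of 0.224 for miR-369-3p, 0.327 for miR-127-3p and 0.159 for miR-493-5p, and 0 of the 13 were called. miR-494-3p, at -0.06, turned positive with RLE (0.01) and TMMwsp (0.06) factors, so that 12 of 13 were then negative, and stayed negative by library size only (-0.25, 13 of 13 negative). Scaling to library size alone moved the median of all lines to -0.25 and that of the cluster to -0.71.

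The direction was shared by dates. The cluster's share in the IL4 exosome library over that in the control of the same date was 0.396, 0.702, 0.615 and 0.690, lower at 4 of 4 dates. The IL4 library also had the larger total at 4 of 4 dates, 1.76, 1.37, 2.07 and 2.10 times that of its control. Line by line, 11 of the 58 cluster lines were lower with IL4 at every date and 0 were higher at every date, where 69 of 1250 lines in all were lower at every date (5.52%). The 11 include both miR-299a-5p and miR-299b-5p, which could not be told apart. Among lines counted in all 8 exosome libraries, 8 of 15 cluster lines and 56 of 214 lines in all (26.2%) were lower at every date. The 8 were miR-369-3p, miR-409-3p, miR-411-5p, miR-379-5p, miR-493-5p, miR-127-3p and both arms of miR-382. Summed myeloid, stromal, erythroid, lymphocyte and endothelial markers were lower with IL4 at 4 of 4 exosome dates as well, for example the erythroid sum at 4.01% ± 1.09 in control and 2.51% ± 0.383 in IL4 exosomes and the myeloid sum at 3.50% ± 0.527 and 2.07% ± 0.218. The myeloid sum was mostly miR-223-3p, at 20895 CPM in control and 11143 CPM in IL4 exosomes on average. All 6 myeloid lines tested in exosomes had a negative log2 fold change. In the same list, mean levels of miR-511-3p (29.3 and 41.7 CPM) and miR-511-5p (8.79 and 35.03 CPM) were higher with IL4, on few counts. The muscle, neural, and liver, gut and serum sums were each higher with IL4 at 1 of 4 dates. Epithelial markers were higher at 2 of 4 dates, with miR-203-3p at 17467 CPM in control and 31273 CPM in IL4 exosomes on average. None of the marker lines tested in exosomes was called by edgeR, and their part and that of depth in the cluster's values were not tested.

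**Figure D5:**
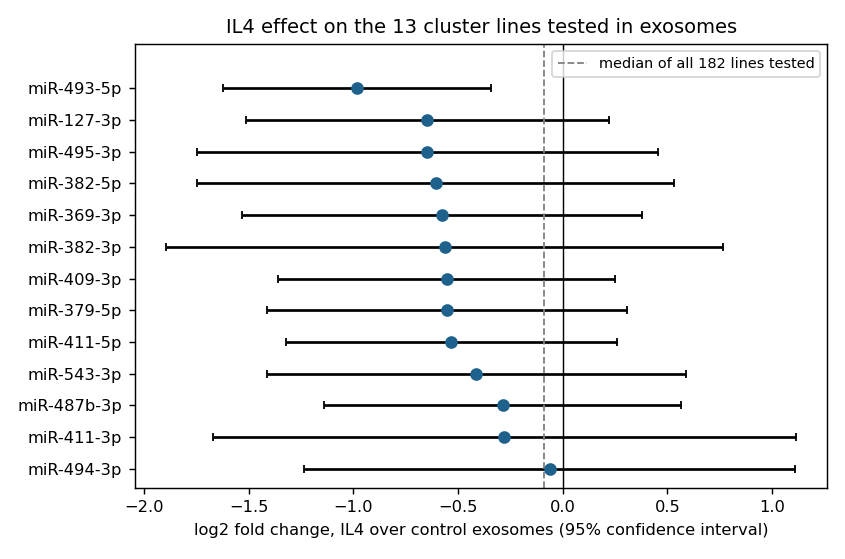
Log2 fold change of IL4 over control exosomes for the 13 cluster lines tested, with points for estimates, whiskers for 95% confidence intervals and a dashed line at the median of all 182 lines, -0.09. All 13 estimates are negative, and 12 of the 13 intervals include 0; that of miR-493-5p runs from -1.62 to -0.34, and none of the 13 was called after adjustment.

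Within lysates 4 of the 58 lines passed the filter and 0 were called, where 32 of 443 lines (7.22%) were called in either direction, 5.87% higher and 1.35% lower. By library size only, 14 of the 443 were called, 57.1% of them higher, against 81.2% of the 32. Without the control lysate of 14 March 2 lines were called, and without the IL4 lysate of that date 7, so this background rests on single libraries. The log2 fold changes of IL4 over control were 0.50 for miR-409-3p (SE 1.36), 0.20 for miR-494-3p (SE 1.23), 0.15 for miR-369-3p (SE 1.30) and 0.12 for miR-127-3p (SE 1.62), all with adjusted p of 0.958 or more (edgeR). No cluster line had an unadjusted p under 0.05, against 63 lines in all, and DESeq2 called 0 cluster lines. The direction was not stable: without the IL4 lysate of 14 March the values fell to between -1.24 and -6.71, and without the control lysate of 23 January to between -0.07 and -0.47. By date, the cluster's share with IL4 was 0.625, 1.72 and 0.357 times that of its control. Control and IL4 lysates had 33 and 21 cluster counts on 23 January, 856 and 856 on 14 March and 644 and 214 on 21 March, and the IL4 total was 1.02, 0.580 and 0.932 times that of its control.

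Whether IL4 changed the cluster differently in exosomes and lysates was tested as the difference of the 2 effects. Of the 30 cluster lines tested 0 were called, as were 0 of all 338 lines (background 0%), and 0 cluster lines against 14 lines in all had an unadjusted p under 0.05. The lowest unadjusted p was 0.0595, for miR-411-5p, with an adjusted p of 0.994 (edgeR) and a log2 difference of 2.23 (95% interval -0.10 to 4.57), a line at 0 in all IL4 lysates. For miR-369-3p the difference was -0.62, with an interval of -3.66 to 2.41, so effects of several-fold in either direction lay within its error. DESeq2 also called 0 cluster lines.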

How the data were processed

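Small RNA of 8 exosome and 6 lysate libraries was read from 1 series-wide table, in which the authors deposited raw counts per mature miRNA with no normalization. Exosomes were purified by OptiPrep gradient and libraries made with a NextFlex kit, per the labels' protocols. Reads were handled with cutadapt on build mm10, per the submitters' processing notes; the aligner, counting program, annotation and use of strand were not given in the sources used here. All 14 columns matched a title (0 columns unused). Nothing in the labels says that libraries came from separate cultures or animals, so each p-value rests on the spread over these libraries only, and that spread may be technical. No libraries of a group were alike within sampling noise (lowest chi-square per degree of freedom 21.0).

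The main test was edgeR's quasi-likelihood test (version 4.0.16, under R 4.3.3; glmQLFit and glmQLFTest after filterByExpr and TMM, two-sided, Benjamini-Hochberg over all lines tested, threshold 0.05), after tests on simulated data. Each compartment was fitted on its own for IL4 against control (182 and 443 lines), and all 14 libraries together for exosomes against lysates and for the difference of IL4 effects (338 lines). CPM use library totals, whereas log2 values are on the TMM scale. Standard errors come from the quasi-likelihood F statistic. DESeq2 1.42.0, other scalings, no filter, equal lines left out, date blocks and leaving out libraries were alternatives. Libraries of a compartment with 1 date in their titles were taken as pairs made on that day; their deviations from group means correlated at 0.0950 to 0.509 in exosomes and 0.388 to 0.736 in lysates (over 330 and 219 lines).

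The 12 lines named in full are those with the highest mean CPM, compartments weighted equally; others are given by counts. Marker lists held 8 myeloid, 10 stromal, 4 erythroid, 1 lymphocyte, 2 endothelial, 7 epithelial, 4 muscle, 4 liver, gut and serum, and 4 neural lines. Members and lists were chosen with earlier results of these data known. Sequences are RefSeq's on GRCm38.p6, the assembly behind mm10. Reads copied by PCR are not separate molecules, and intervals and floors therefore express counting error alone.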

Additional observations from a re-analysis of the deposited data

How the results depend on the processing

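No cluster line was called for IL4 in exosomes or lysates, or for the difference of the IL4 effects, under any alternative run. In exosomes against lysates, between 23 and 43 cluster lines were called higher and 0 lower in controls, and between 21 and 42 higher with IL4. These numbers follow how many lines entered a run. The low ends were 23 of 23 and 21 of 21 lines that passed the filter in fits of 1 treatment. The high ends were of 58 lines without the filter, where 11.6% and 12.8% of all 1250 lines were called higher. Over all lines, the exosome count of 1 became 6 with DESeq2, 12 without the filter 3 with the block and library size only and 0 with library size only, and ran from 0 to 2 when single libraries were left out. The lysate count of 32 became 14 with library size only, 46 without the filter, 42 with DESeq2, 4 in 1 fit over all 14 libraries, 50 with the block and 60 with the block and library size only, and ran from 2 (without the control lysate of 14 March) to 34 when single libraries were left out. Without the IL4 lysate of 14 March, equal-depth detection in IL4 lysates went from 1.19 to 0.481 lines. The control exosome share of 1.26% was 1.68% when miR-21a-5p and all lines of miR-203 were taken out of the total and 0.800% without miR-369-3p. Equal-depth detection fell to 22.6 (control) and 18.6 (IL4) exosome lines at 10000 counts and to 19.4 and 14.99 when 3 counts were required.

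With the date as a replicate block, 0 cluster lines were called in exosomes (median -0.54, or -0.70 with library size only) and in lysates. Lysate log2 fold changes turned negative under the block for miR-369-3p (-0.20), miR-127-3p (-0.51) and miR-494-3p (-0.036), and with the block and library size only for these (-0.41, -0.69 and -0.23) and miR-409-3p (-0.12). In exosomes miR-494-3p, at -0.06, became 0.0053 with RLE factors, 0.063 with TMMwsp, 0.041 without the filter and 0.0036 with DESeq2.

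Leaving out single libraries, exosome values ran from -0.24 to 0.51 for miR-494-3p, -0.47 to 0.046 for miR-543-3p and -0.39 to 0.14 for miR-411-3p. Lysate values ran from -1.53 to 0.72 for miR-369-3p, -1.89 to 1.13 for miR-409-3p, -6.71 to 0.77 for miR-127-3p and -1.24 to 0.84 for miR-494-3p, lowest without the IL4 lysate of 14 March. Chosen after seeing the data, leaving out both exosomes of 25 January gave 0.10 for both miR-487b-3p and miR-494-3p, and leaving out both lysates of 14 March gave -1.11 for miR-369-3p. The cause of these changes was not tested. Many exosome lines had few counts, and miR-369-3p was the only cluster line counted in every lysate. Every lysate had a larger total than every exosome library, and the part of depth in these values was not tested.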
